A study of Mus musculus with 16 samples.

Results

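The collagen genes were examined in RNA from mandibular molar tooth germs of Rsk2-/Y and wild-type (WT) mouse embryos. Members were taken by name. Every gene was included whose symbol in the array's annotation reads Col, a number, the letter a and a number, on a probe set that carries this symbol alone. This gave 46 probe sets for 44 genes, of 19938 genes with such a probe set. Col6a5 and Col6a6 each had a further probe set, and the one with the higher mean signal was read. All 44 genes had a signal above 5, the minimum used, in all 16 samples, so none was lost to the filter. They were sorted by the usual classes of the family into 11 fibrillar, 9 basement membrane, 9 FACIT, 6 beaded filament, 3 hexagonal network and 4 transmembrane collagens, with 2 others (Col26a1 and Col28a1). Across these classes, 8 genes were also read as collagens of cartilage.

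The study asked which transcripts of the early molar depend on RSK2, a kinase of the ERK pathway encoded by the X-linked gene Rps6ka3 and mutated in Coffin-Lowry syndrome. The mutant group held 8 samples of Rsk2-/Y males, which lack functional RSK2 in all cells, and the WT group 8 samples of littermate males with the intact gene. Both were of C57Bl6 background, were collected at E14.5 and had no treatment. The labels give each sample as RNA from a pool of 4 tooth germs, 150 ng of it per array. The paper's methods state a larger starting amount of RNA and describe each sample as pooled from independent embryos of 1 genotype. Sample names begin with AZN or ABH, with 4 samples of each genotype under each prefix. These are called series here, and no source used here gives their meaning. The Rsk2-/Y allele is described as a deletion of 1 exon that shifts the reading frame. The Rps6ka3 signal was 9.74 to 10.4 in Rsk2-/Y pools and 9.61 to 10.22 in WT pools. The log2 difference was 0.10. A transcript without 1 exon could still meet the other probes, and single probes were not examined, so this probe set does not check the genotype.

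Collagens are secreted proteins whose chains wind around each other into a helix before they are assembled outside the cell. Fibrillar collagens form the cables of mesenchyme, bone and cartilage, and FACIT collagens sit on the surface of those cables. Type IV chains form the sheet of the basement membrane that lies between enamel organ and dental mesenchyme and around blood vessels. Type VI collagen forms beaded filaments around cells, type VIII forms hexagonal networks, and type XVII anchors epithelial cells to the basement membrane at hemidesmosomes. At E14.5 the molar is at the cap stage, with an epithelial enamel organ around a condensed dental papilla. Neither dentin nor mineralized bone belongs to the germ itself.

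Epithelial and mesenchymal markers were both present. The mean log2 signal of 11 dental epithelium markers was 9.82 to 10.38 in Rsk2-/Y pools and 9.93 to 10.75 in WT pools, and that of 9 dental mesenchyme markers was 10.21 to 10.77 in Rsk2-/Y pools and 10.42 to 10.69 in WT pools. Skeletal muscle markers (17 genes) ran from 7.53 to 10.04 in Rsk2-/Y pools and from 7.6 to 9.11 in WT pools. Osteoblast markers (6 of 10 measured) ran from 8.86 to 10.21 in Rsk2-/Y pools and from 8.67 to 9.41 in WT pools. The mean of 9 cartilage markers was 6.24 to 6.58 in Rsk2-/Y pools and 6.31 to 6.58 in WT pools. Of these 9 genes, 4 averaged below 6, among them the aggrecan gene Acan, and Sox9 averaged 9.33. In pooled tissue, fewer cells of a type and less RNA per cell cannot be told apart. Correlations between samples over all probe sets ran from 0.976 to 0.997.

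The deposited values are log2 signals, in which a step of 1 is a doubling of signal. Signals of different probe sets are not on a common scale, so levels are compared between pools for 1 gene and never between genes. Mean signals of the 44 genes lay between 5.64 for Col10a1, a collagen of hypertrophic cartilage, and 12.06 for Col1a1, the main chain of type I collagen. Within a genotype and series, pools differed least for Col5a1, with an SD of 0.05, and most for Col14a1, with an SD of 0.36.

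**Figure D1:**
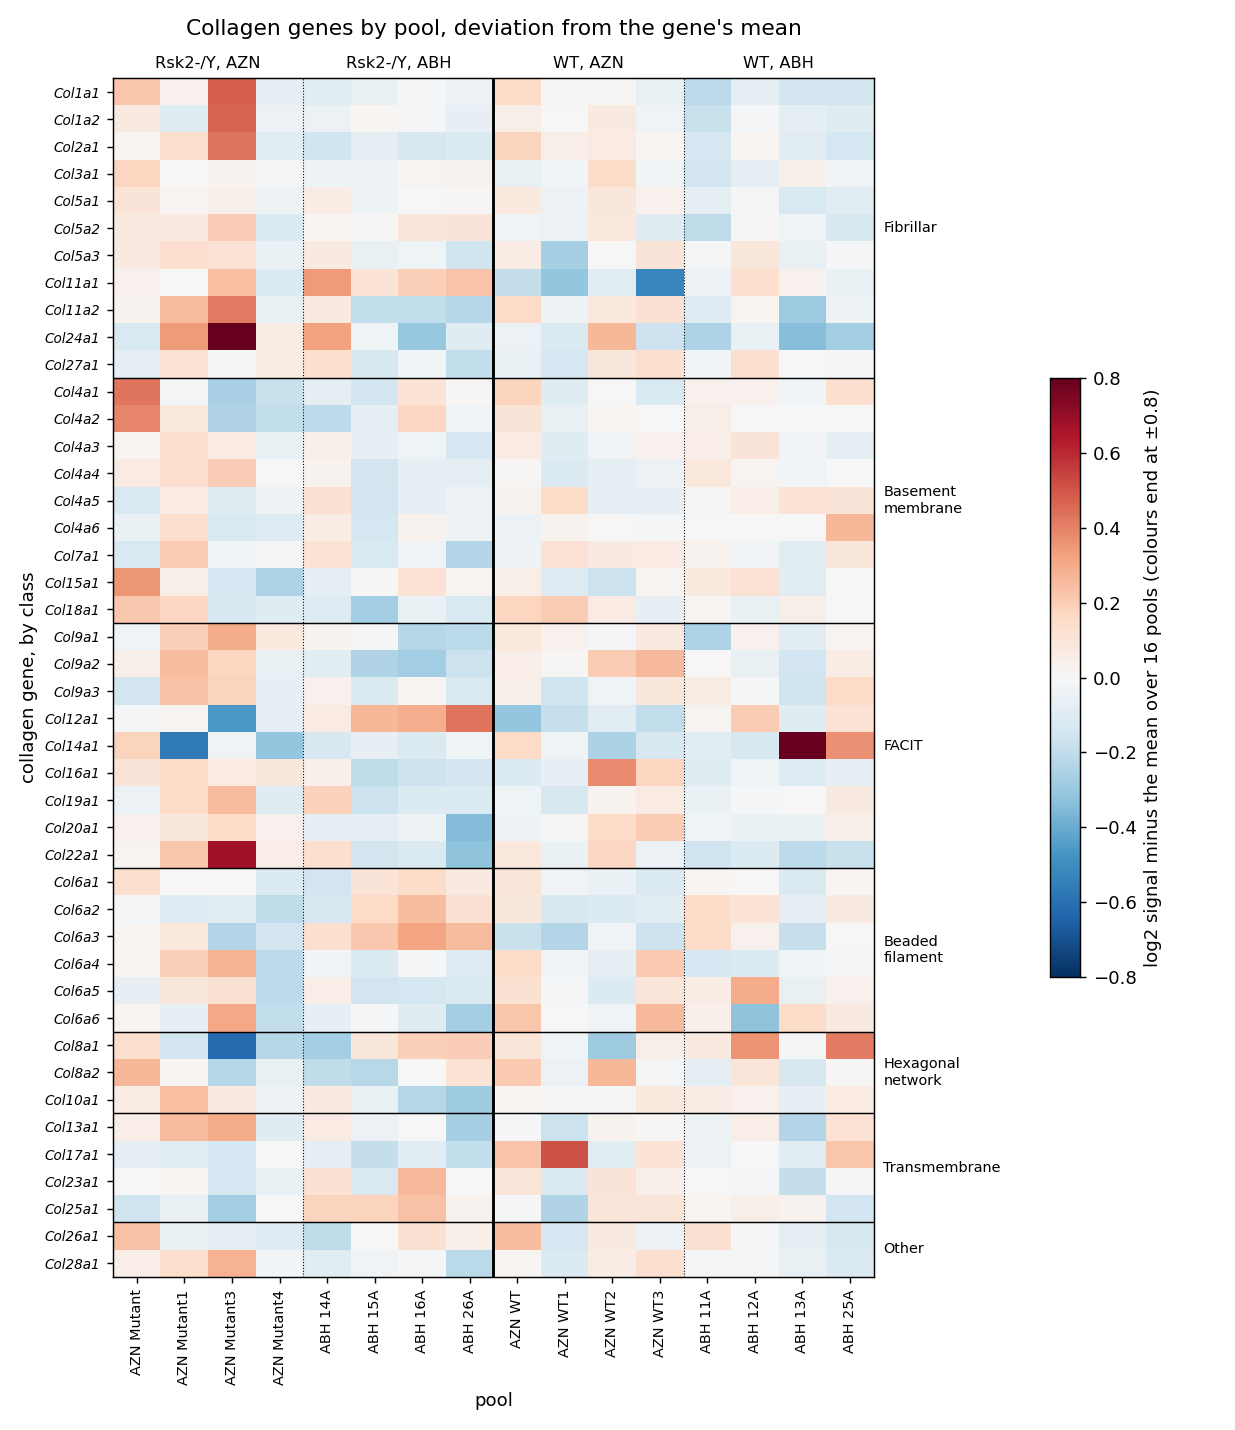
Deviation of each of 44 collagen genes (rows, by class) from its own mean over 16 pools, in log2 units (colour), for the 8 Rsk2-/Y pools on the left and the 8 WT pools on the right, AZN before ABH in each. The pool AZN_MolairesMutant3 is highest for 14 genes and lowest for 7, and the pair Col4a1 and Col4a2 shares its colours from pool to pool.

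Between genotypes, no collagen gene passed both thresholds of the study, a false discovery rate below 0.1 together with more than a 1.2-fold difference (limma, Benjamini-Hochberg over 18834 probe sets). The same held for every probe set tested, with 0% called higher and 0% called lower in Rsk2-/Y. The paper itself reports genes as different at these thresholds, from other software, and the source of that disagreement was not examined. Without adjustment, p was below 0.05 for Col11a1 and Col5a2 among those above 0 (2 of 44) and for Col17a1 among those below 0 (1 of 44), against 1.18% of all probe sets higher and 2.87% lower. Groups of 8 did not overlap for 0 of 44 collagens, against 0.0159% of all probe sets. Of the 44 genes, 33 differed by less than 0.1 log2 units between genotypes, and for 20 the sign of the difference was opposite in the AZN and ABH series.

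The fibrillar chain Col11a1 had the largest positive difference of the family. Its protein joins type II collagen in cartilage fibrils and type V in other tissues, where it limits fibril width. In Rsk2-/Y pools it ran from 9.12 over a median of 9.38 to 9.57, and in WT pools from 8.71 over 9.16 to 9.36. The ranges overlapped, but all 8 Rsk2-/Y pools lay above the WT mean. Rsk2-/Y pools averaged 9.36 ± 0.15 and WT pools 9.10 ± 0.21 (SD, n = 8 each), a log2 difference of 0.26 ± 0.09 (SE, adjusted p = 0.995, limma). Within AZN it was 0.32 and within ABH 0.20, and with the series as a block the adjusted p was 0.286 (limma). With array weights the difference was 0.20, and without ABH_14A and AZN_MolairesMutant3, the highest pools for Col11a1, it was 0.21. Those pools also had the highest skeletal muscle means (9.60 and 10.04), whose part in the Col11a1 difference was not tested. An exact permutation test over all arrangements of 8 against 8 gave a two-sided p of 0.00995 (adjusted over 32 named members, 0.159). Over the arrangements that keep the series the exact permutation p was 0.00163 (adjusted, 0.0522). Some of these members were named for the size of their genotype difference, and the adjustment does not cover that choice.

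Col17a1, the hemidesmosome collagen of epithelial cells, had the smallest p among the genes that were lower in Rsk2-/Y. Its signal was 8.91 to 9.10 with a median of 9.02 in Rsk2-/Y pools, and 9.02 to 9.62 with a median of 9.16 in WT pools. The Rsk2-/Y pools lay in a narrow band, and all 8 were below the WT mean. The means were 9.003 ± 0.07 in Rsk2-/Y pools and 9.21 ± 0.21 in WT pools (SD, n = 8 each), with a log2 difference of -0.21 ± 0.07 (SE, adjusted p = 0.998, limma). The difference was -0.26 within AZN and -0.16 within ABH, and -0.15 without the WT pool AZN_MolairesWT1, the highest of all. Unadjusted exact permutation p-values were 0.00746 over all arrangements and 0.00612 within the series. Adjusted over the same 32 named members, the exact permutation values were 0.159 and 0.098. All 11 dental epithelium markers were also lower in Rsk2-/Y, with a median of -0.28 log2 units. Of all probe sets 40.7% were above 0, and their median was -0.01. The part of the epithelium markers in the Col17a1 difference was not tested.

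Over the pools, after the mean of each genotype in each series had been removed, Col17a1 was correlated with the mean of those epithelial markers. Pearson's r was 0.75 (permutation p = 0.00158) and Spearman's rho 0.71 (permutation p = 0.00284) over 16 pools. The adjusted values over 396 relations between members and marker lists were 0.0257 for r and 0.0937 for rho. Without the 2 pools farthest from the median r was 0.64. Within a series the genotype means were not removed, so the genotype difference enters r there. It was 0.84 within AZN and 0.85 within ABH.

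The sequence before the start of these genes is shown for Col11a1 and Col17a1, which had the lowest p between genotypes, and for Col11a2, the partner chain of Col11a1, whose series difference ran the other way. Each is the 250 bases ahead of the start that RefSeq's promoter table gives on GRCm38.p6, on the strand of the gene. Capitals mark the CCAAT box, the GC box motif GGGCGG and the TATA box motif TATAAA on either strand. A gene can have further starts that these windows do not show.
Col11a1, plus strand, chr3:114030290-114030539: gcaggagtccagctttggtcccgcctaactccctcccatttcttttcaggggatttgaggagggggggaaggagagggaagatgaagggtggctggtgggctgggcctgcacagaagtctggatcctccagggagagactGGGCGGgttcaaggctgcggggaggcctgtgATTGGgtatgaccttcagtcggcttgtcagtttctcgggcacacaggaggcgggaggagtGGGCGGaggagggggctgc
Col11a2, plus strand, chr17:34038888-34039137: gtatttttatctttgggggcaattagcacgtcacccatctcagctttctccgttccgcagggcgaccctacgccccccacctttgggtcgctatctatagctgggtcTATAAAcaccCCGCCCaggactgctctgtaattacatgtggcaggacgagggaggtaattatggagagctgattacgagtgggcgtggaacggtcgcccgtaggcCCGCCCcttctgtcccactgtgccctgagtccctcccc
Col17a1, minus strand, chr19:47692043-47692292: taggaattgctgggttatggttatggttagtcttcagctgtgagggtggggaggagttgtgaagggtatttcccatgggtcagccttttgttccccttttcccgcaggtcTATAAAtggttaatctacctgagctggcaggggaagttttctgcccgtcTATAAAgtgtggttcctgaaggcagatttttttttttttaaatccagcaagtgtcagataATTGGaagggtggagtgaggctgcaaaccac

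The table held a start for 35 of the 44 genes, in 38 windows. GGGCGG, or its reverse complement CCGCCC, was found in 57.9% of the collagen windows and in 32.7% of all 32851 windows of this length. CCAAT, or its reverse complement ATTGG, was found in 34.2% and 33.9%, and TATAAA, or its reverse complement TTTATA, in 13.2% and 12.4%. Col11a1 and Col11a2 each hold GGGCGG at 2 places, Col11a2 holds TATAAA once and Col17a1 holds it at 2 places. These matches describe the letters only.

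The other fibrillar genes differed less between genotypes. Col5a2, a chain of type V collagen that nucleates type I fibrils, was at 8.74 to 9.05 with a median of 8.93 in Rsk2-/Y pools and at 8.65 to 8.93 with a median of 8.81 in WT pools. Its log2 difference was 0.11 ± 0.05 (SE, adjusted p = 0.9997, limma), with an unadjusted p of 0.0349. Col24a1, a minor fibrillar collagen of bone, had a difference of 0.25 ± 0.13 (SE) that became 0.15 without AZN_MolairesMutant3. For Col24a1 that pool stood at 8.26, the highest of all, and it also held the highest skeletal muscle mean (10.04), the highest osteoblast mean (10.21) and the lowest dental epithelium mean (9.82). The part of these cell types in the Col24a1 signal was not tested.

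Col1a1 ran from 11.97 over 12.04 to 12.54 in Rsk2-/Y pools and from 11.85 over 11.99 to 12.22 in WT pools, and Col1a2 from 11.41 over 11.48 to 11.97 in Rsk2-/Y pools and from 11.33 over 11.48 to 11.58 in WT pools. Their differences were 0.12 ± 0.08 and 0.07 ± 0.07 log2 units (SE), and without AZN_MolairesMutant3 they were 0.06 for Col1a1 and 0.01 for Col1a2. Col3a1, the collagen of loose mesenchyme, and Col5a1 differed by 0.04 each. In all, 10 of 11 fibrillar genes were above 0 and 1 below, with a median of 0.04, while 40.7% of all probe sets were above 0 with a median of -0.01. None of the 11 passed the test, and the count above 0 was 9 with each array centred on its median, 7 with array weights, 7 without the pools ABH_14A and AZN_MolairesMutant3, 10 within AZN and 7 within ABH. Osteoblast markers were also above 0 for 6 of 6 genes, with a median of 0.35, and skeletal muscle markers for 16 of 17, with a median of 0.58, none of them called.

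Over the pools, with the mean of each genotype in each series removed, Col1a1 and Col2a1 were correlated with the osteoblast mean. For Col1a1 r was 0.79 and rho 0.51 (adjusted permutation p = 0.0172 and 0.272 over 396 relations), with 0.95 within AZN, 0.51 within ABH and 0.41 without the 2 farthest pools. For Col2a1 r was 0.87 and rho 0.68 (adjusted permutation p = 0.00594 and 0.106), with 0.88 within AZN, 0.25 within ABH and 0.63 without the 2 farthest pools. The values within AZN and within ABH are of the signals themselves, with no means removed. The part of bone and muscle cells in the fibrillar differences was not tested.

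Basement membrane genes lay mostly below 0, without any call. Over all probe sets 40.7% were above 0 and the median was -0.01, so most probe sets lay on the same side. Of 9 genes, 7 were below 0 and 2 above, the median was -0.03 and the range ran from -0.10 for Col18a1, the source of endostatin, to 0.03 for Col4a4. Among the chains of the ubiquitous type IV network, Col4a1 differed by -0.03 ± 0.08 and Col4a2 by -0.03 ± 0.08 log2 units (SE). Col4a5 and Col4a6, chains of epithelial basement membranes, differed by -0.08 ± 0.05 and -0.06 ± 0.05 (SE). Col7a1, which forms the anchoring fibrils beneath epithelia, differed by -0.05 ± 0.06 (SE). The count above 0 was 4 of 9 without ABH_14A and AZN_MolairesMutant3, 0 with array weights, 4 within AZN and 0 within ABH.

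FACIT genes were divided, with 5 of 9 above 0 and 4 below and a median of 0.01. The count above 0 was 2 without AZN_MolairesMutant3, 2 with array weights, 6 within AZN and 2 within ABH. Col14a1, which coats fibrils in loose connective tissue, had the largest size of difference in the family, -0.27 ± 0.16 log2 units (SE, adjusted p = 0.9997, limma). It ran from 8.36 over 8.83 to 9.10 in Rsk2-/Y pools and from 8.67 over 8.86 to 10.11 in WT pools. The medians were close, and the WT pool ABH_13A at 10.11 stood apart from the next pool at 9.29. Without ABH_13A the Col14a1 difference was -0.12 ± 0.10 (SE). Col12a1, the FACIT collagen of dense mesenchyme and periosteum, differed by 0.13 ± 0.11 and Col22a1, a collagen of tissue junctions, by 0.13 ± 0.11 (SE). Without AZN_MolairesMutant3 these became 0.21 for Col12a1 and 0.04 for Col22a1.

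Type VI collagen gave 3 genes above 0 and 3 below. Col6a3, whose long chain completes the type VI molecule, was at 10.62 to 11.17 with a median of 10.97 in Rsk2-/Y pools, and at 10.62 to 11 with a median of 10.76 in WT pools. The difference of 0.15 ± 0.08 log2 units (SE, adjusted p = 0.9997, limma) was 0.07 within AZN and 0.23 within ABH. Col6a1 and Col6a2 differed by 0.05 and -0.00. Col6a5 and Col6a6, whose chains can take the place of the Col6a3 chain, differed by -0.11 and -0.10, and their further probe sets by -0.02 and -0.19.

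All 3 hexagonal network genes were below 0, while 40.7% of all probe sets were above 0 with a median of -0.01. Col8a1, a collagen of endothelial and mesenchymal matrix, ran from 9.28 over 9.87 to 10.10 in Rsk2-/Y pools and from 9.61 over 9.96 to 10.31 in WT pools, a difference of -0.16 ± 0.12 log2 units (SE). The lowest value was that of AZN_MolairesMutant3, and without it the Col8a1 difference was -0.09. Col8a2 and Col10a1 differed by -0.08 and -0.04. Besides Col17a1, the transmembrane collagens Col13a1, Col23a1 and Col25a1 differed by 0.06, 0.02 and 0.03, and the others by -0.01 for Col26a1 and 0.03 for Col28a1. None of these genes passed the test. Collagens of cartilage gave 5 of 8 genes above 0, with a median of 0.01, and 1 of 8 above 0 with array weights, 1 of 8 without AZN_MolairesMutant3, 7 of 8 within AZN and 1 of 8 within ABH.

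**Figure D2:**
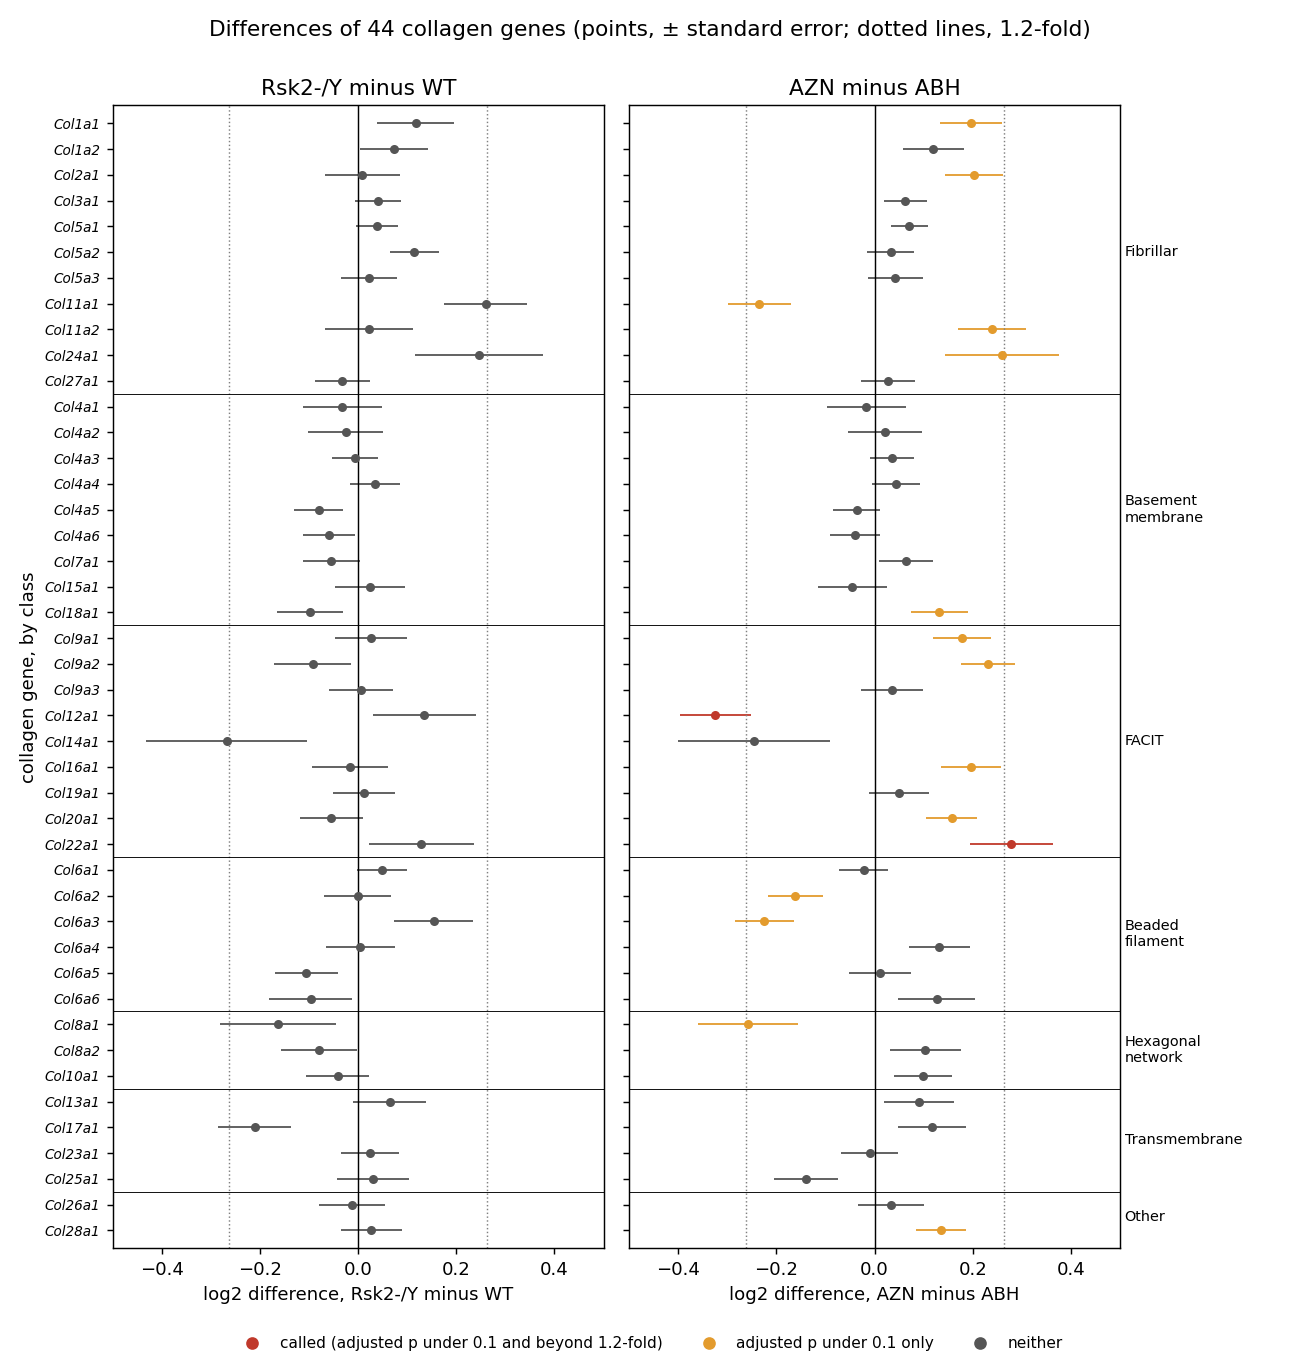
Log2 differences of the 44 collagen genes, Rsk2-/Y minus WT on the left and AZN minus ABH on the right, as points with the standard error of the fit as bars (red, called; orange, false discovery rate alone; grey, neither). Dotted lines mark a fold change of 1.2 in either direction. No gene is called by genotype, and Col12a1 (lower) and Col22a1 (higher) are called by series.

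The series names divided the collagens further than the genotypes did. With genotype in the fit, 1 collagen was called higher and 1 lower in AZN than in ABH, which is 2.27% of the 44 in each direction, against 5.95% of all probe sets higher and 10.6% lower. At a false discovery rate under 0.1 with no minimum fold, 11 collagens (25.0%) were higher and 5 (11.4%) lower, against 21.7% and 23.1% of all probe sets. All but Col12a1 and Col22a1 lay under 1.2-fold. Groups of 8 did not overlap for 0 of 44 collagens, against 8.95% of all probe sets. The sign of the series difference was the same in Rsk2-/Y and in WT pools for 33 of 44 genes.

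Col12a1 was the collagen called lower in AZN. Its signal ran from 11.15 over a median of 11.47 to 11.63 in AZN pools, and from 11.51 over 11.77 to 12.04 in ABH pools. All 8 AZN pools were below the ABH mean, and the lowest was again AZN_MolairesMutant3. AZN pools averaged 11.44 ± 0.16 and ABH pools 11.77 ± 0.17 (SD, n = 8 each), a log2 difference of -0.32 ± 0.07 (SE, adjusted p = 0.00204, limma). The call held when any 1 of the 16 pools was left out, with differences between -0.35 and -0.27. It was -0.39 between Rsk2-/Y pools alone and -0.26 between WT pools alone, where it passed the false discovery rate but lay just under 1.2-fold (adjusted p = 0.0502, limma).

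Col22a1 was the collagen called higher in AZN. In AZN pools it ran from 7.10 over 7.22 to 7.82, and in ABH pools from 6.83 over 6.997 to 7.28. All 8 AZN pools were above the ABH mean. The means were 7.29 ± 0.23 in AZN pools and 7.01 ± 0.13 in ABH pools (SD, n = 8 each), with a log2 difference of 0.28 ± 0.08 (SE, adjusted p = 0.0152, limma). Without AZN_MolairesMutant3, the highest pool, the difference was 0.21, and without ABH_26A, the lowest pool, it was 0.24, in both cases below 1.2-fold and no longer called.

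Several cartilage collagens were higher in AZN together, each under 1.2-fold. Col2a1, the main fibrillar chain of cartilage, was at 8.23 to 8.75 with a median of 8.38 in AZN pools and at 8.16 to 8.34 with a median of 8.20 in ABH pools, a log2 difference of 0.20 ± 0.06 (SE, adjusted p = 0.0129, limma). Col9a1 and Col9a2, chains of type IX collagen on the surface of type II fibrils, had differences of 0.18 ± 0.06 and 0.23 ± 0.06 (SE, adjusted p = 0.0257 and 0.00373, limma). Col9a3, the chain that completes type IX, differed by 0.04 ± 0.06 (SE, adjusted p = 0.689, limma). Of the 8 cartilage collagens, 7 were above 0 and 4 of these were at a false discovery rate under 0.1, against 53.5% of all probe sets above 0 and 21.7% higher at that rate. Between Rsk2-/Y pools alone their median was 0.22, and between WT pools alone it was 0.05 with 4 of 8 above 0. Among the 9 cartilage markers, 5 were above 0 and 4 below, with 1 called higher and 1 lower in AZN. Cytl1 was the 1 called higher, with means of 6.565 in AZN pools and 6.272 in ABH pools. The regulator of cartilage collagens Sox9 was the 1 called lower, by 0.40 ± 0.08 (SE, adjusted p = 0.00145, limma).

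The chains of type XI collagen went opposite ways between the series. Col11a2 was at 7.57 to 8.05 with a median of 7.73 in AZN pools and at 7.35 to 7.70 with a median of 7.48 in ABH pools, and was higher in AZN by 0.24 ± 0.07 (SE, adjusted p = 0.0131, limma). Col11a1 was at 8.71 to 9.47 with a median of 9.13 in AZN pools and at 9.17 to 9.57 with a median of 9.35 in ABH pools, and was lower in AZN by 0.23 ± 0.06 (SE, adjusted p = 0.00875, limma). Both differences lay under 1.2-fold. Col11a1 thus had a genotype difference and a series difference of similar size, of which only the series difference passed the false discovery rate. With both terms in the fit, the unadjusted p was 0.000839 for genotype and 0.00194 for series (limma). The adjusted values also depend on all probe sets, of which 21.7% were higher and 23.1% lower by series at that rate.

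Of the type I chains, Col1a1 was higher in AZN by 0.20 ± 0.06 (SE, adjusted p = 0.021, limma), with all 8 AZN pools above the ABH mean, and Col1a2 differed by 0.12 ± 0.06 (SE, adjusted p = 0.142, limma). The FACIT genes Col16a1 and Col20a1 were higher in AZN by 0.20 and 0.16, Col24a1 by 0.26, Col28a1 by 0.14 and Col18a1 by 0.13 at the same rate and below 1.2-fold. For 4 genes the rate was not met without 1 pool or another. Col24a1 lost it in 9 of the 16 fits without 1 pool, up to an adjusted p of 0.172 (without ABH_16A; also without AZN_MolairesMutant1, AZN_MolairesMutant3, ABH_15A, ABH_26A, AZN_MolairesWT2, ABH_11A, ABH_13A or ABH_25A). Col18a1 lost it in 8, up to 0.168 (without ABH_15A; also without AZN_MolairesMutant, AZN_MolairesMutant1, ABH_26A, AZN_MolairesWT, AZN_MolairesWT1, ABH_12A or ABH_25A), and Col28a1 in 1, at 0.105 (without ABH_26A, limma in each case). Lower in AZN at that rate were Col6a3 by 0.23 ± 0.06 (SE, adjusted p = 0.00706, limma), Col6a2 by 0.16 and Col8a1 by 0.26. Col8a1 lost the rate in 5 of those fits, up to an adjusted p of 0.112 (without AZN_MolairesMutant3; also without ABH_16A, ABH_26A, AZN_MolairesWT2 or ABH_25A, limma). Col6a1, the chain that pairs with these in type VI collagen, differed by -0.02 ± 0.05 (SE). Osteoblast markers were above 0 in AZN for 6 of 6 genes, with 2 called higher, and skeletal muscle markers for 17 of 17, with 8 called higher. Dental epithelium markers were below 0 for 9 of 11, with 5 called lower and 1 higher. Dental mesenchyme markers were below 0 for 8 of 9, with a median of -0.07, 2 called lower and 1 higher. Among all probe sets 5.95% were called higher and 10.6% lower. Erythroid markers were above 0 for 4 of 4 genes, with a median of 0.51 and 2 called, and Schwann cell and glia markers for 4 of 4, with a median of 0.26 and 2 called. The part of these cell types in the series differences was not tested.

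**Figure D3:**
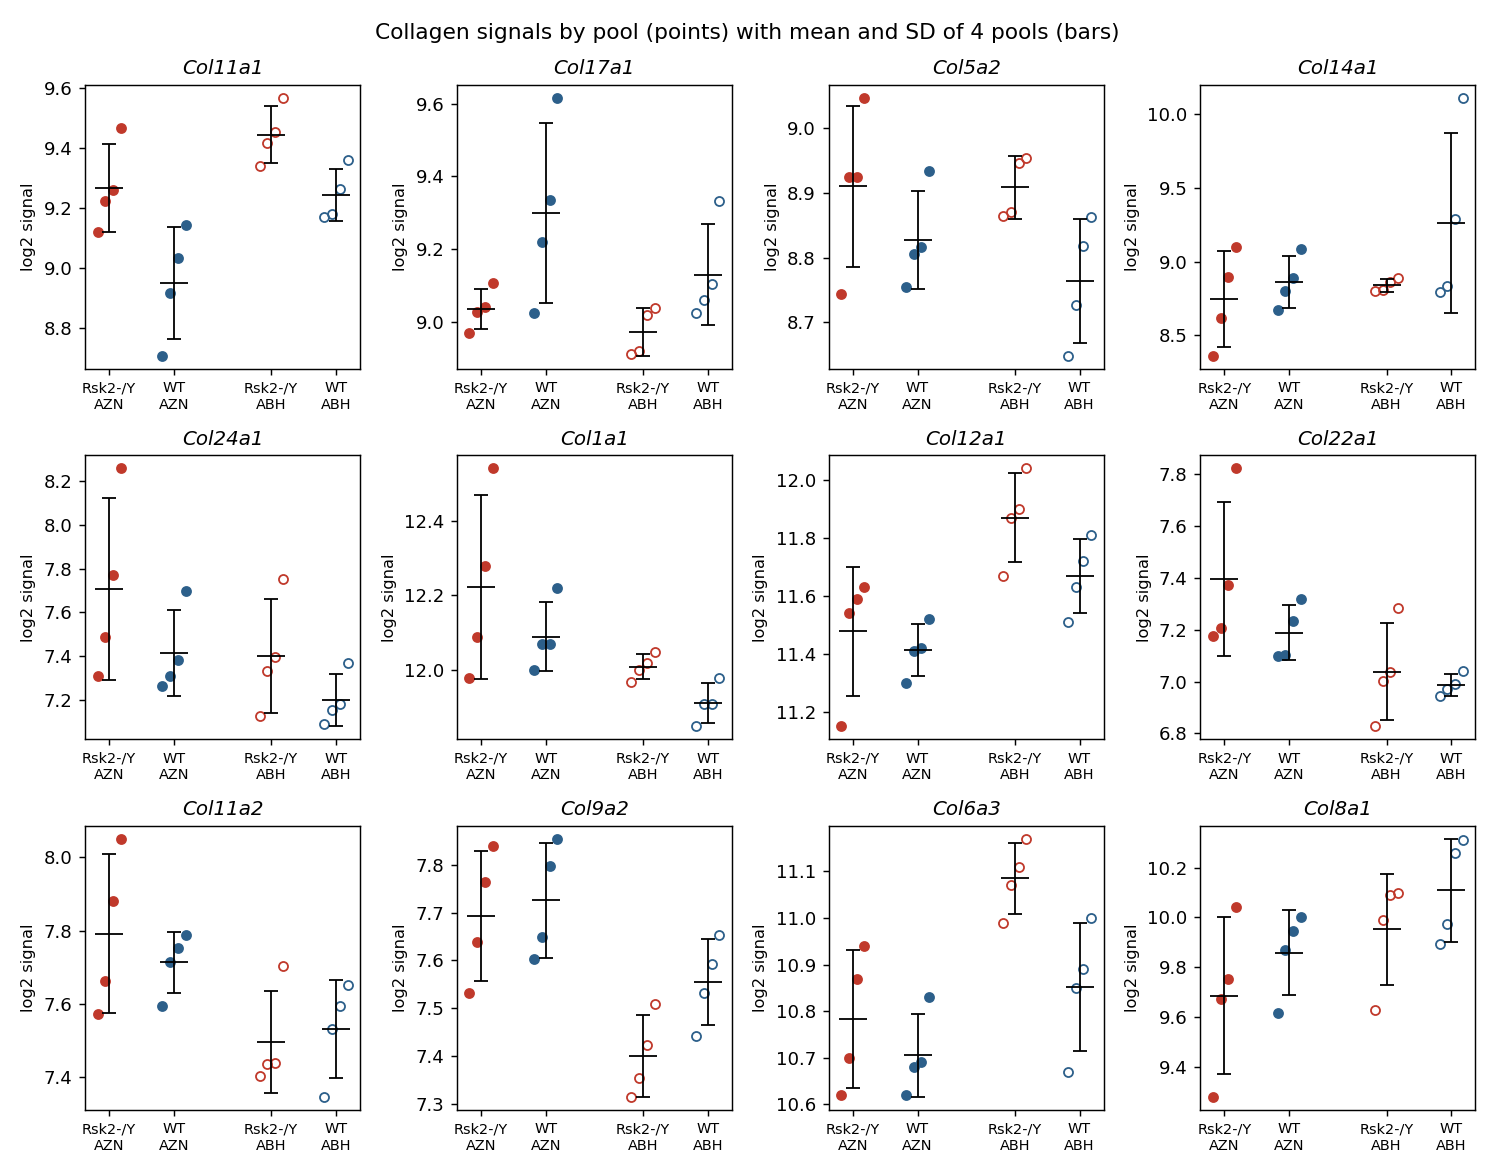
Log2 signals of 12 collagen genes in each pool (filled points AZN, open points ABH; Rsk2-/Y red, WT blue), with the mean and SD of the 4 pools of each genotype and series as bars. Col11a1 is higher and Col17a1 lower in Rsk2-/Y in both series without passing the test, and Col12a1 is lower in AZN in both genotypes.

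The genotype difference was also compared between the series through the interaction term. No collagen was called, with 0% of all probe sets called higher and 0% lower. Without adjustment, p was below 0.05 for 1 of 44 collagens above 0 and 1 below, against 3.87% and 2.45% of all probe sets. Col4a4, a chain of mature basement membranes, was 0.16 higher in Rsk2-/Y than in WT in AZN and 0.09 lower in ABH, an interaction of 0.24 ± 0.08 (SE, adjusted p = 0.728, limma). Col25a1, a transmembrane collagen, differed by -0.11 in AZN and 0.17 in ABH, an interaction of -0.28 ± 0.12 (SE, adjusted p = 0.731, limma).

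Single pools accounted for many of the extremes. AZN_MolairesMutant3 was the highest pool for 14 of the 44 genes, among them Col1a1, Col1a2, Col2a1, Col9a1, Col11a2, Col22a1 and Col24a1. It was the lowest for 7, among them Col4a1, Col4a2, Col6a3, Col8a1 and Col12a1. The unnumbered pool AZN_MolairesMutant was highest for 7 genes, Col3a1, Col4a1, Col4a2, Col5a1, Col8a2, Col15a1 and Col18a1, and had the highest endothelium mean, 9.71. The pool ABH_26A was lowest for 9 genes, the most of any, and the WT pool ABH_11A was lowest for Col1a1, Col1a2, Col3a1, Col5a2 and Col9a1.

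Chains that are built into 1 molecule, or that meet in cartilage fibrils, were next compared over the pools. For 11 pairs, the mean of each genotype in each series was removed, and the remaining deviations of 16 pools were correlated. Col11a1 with Col11a2 was not among the pairs. Correlations within AZN or within ABH, here and below, are of the signals themselves, without that removal. All 11 pairs had a Pearson correlation above 0 in both series, 7 passed an adjusted permutation p under 0.05 by Pearson's r and 4 by both r and Spearman's rho. Removing 4 means leaves 12 degrees of freedom, so these p-values are somewhat too small. The pools may also not be fully independent, since over all probe sets the deviations of the unnumbered pools AZN_MolairesMutant and AZN_MolairesWT correlated at 0.68.

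Col6a1 and Col6a2, which lie side by side in the mouse genome on chromosome 10, moved most closely. Over 16 pools r was 0.93 and rho 0.94, with a permutation p of 1e-05 for each, the smallest these permutations can give (adjusted p = 5.5e-05 for r and 0.00011 for rho). The correlation was 0.80 within AZN and 0.96 within ABH, and 0.88 without the 2 pools farthest from the median. Among 17214 other genes, Col6a2 was the one whose deviations were most like those of Col6a1, and Col6a1 the one most like Col6a2. Col6a1 and Col6a3 had r = 0.49 and rho = 0.51 (adjusted permutation p = 0.0752 and 0.0883).

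Col4a1 and Col4a2 code for the chains of the common type IV network and are transcribed in opposite directions from neighbouring starts. In RefSeq's promoter table for GRCm38.p6, Col4a2 starts on the plus strand 21 bases before the start of Col4a1 on the minus strand, so that the 22 bases from start to start belong to both. They are shown on the plus strand, with GGGCGG in capitals.
Col4a2 and Col4a1, chr8:11312805-11312826: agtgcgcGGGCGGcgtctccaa
Over 16 pools r was 0.91 (permutation p = 1e-05, the smallest possible) and rho 0.91 (permutation p = 2e-05), with adjusted values of 5.5e-05 and 0.00011. The correlation was 0.96 within AZN and 0.71 within ABH, and 0.75 without the 2 farthest pools. Col4a2 ranked 9 of 17214 genes by likeness to Col4a1.

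The type IV pair also moved with endothelial markers. For Col4a2 and the mean of 7 endothelium markers r was 0.91 (permutation p = 1e-05, the smallest possible) and rho 0.82 (permutation p = 0.00024), with 0.96 within AZN, 0.73 within ABH and 0.82 without the 2 farthest pools (adjusted p = 0.00396 for r and 0.0198 for rho over 396 relations). For Col4a1 r was 0.83 and rho 0.68 (adjusted permutation p = 0.00968 and 0.0969), with 0.97 within AZN and 0.42 within ABH. The endothelium mean was 9.05 to 9.71 in Rsk2-/Y pools and 9.31 to 9.52 in WT pools. Col6a1 had r = 0.83 and rho = 0.86 with the same markers (adjusted permutation p = 0.00594 and 0.0099), 0.79 within AZN, 0.57 within ABH and 0.76 without the 2 farthest pools. Other cell types moved with these genes as well. With the macrophage mean r was 0.76 for Col4a1, 0.76 for Col4a2 and 0.81 for Col6a1 (adjusted permutation p = 0.0206, 0.0176 and 0.00792), and with the dental mesenchyme mean it was 0.73 for Col4a2 (adjusted permutation p = 0.0257), while no adjusted p for rho was under 0.05 in these 4 relations. The part of any of these cell types in the signals was not tested. Of the 396 relations, 34 had an adjusted permutation p under 0.05 by r and 6 by both r and rho.

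Col4a5 and Col4a6 also start on opposite strands, 1343 bases apart on the X chromosome and pointing away from each other. Their deviations correlated less closely, with r = 0.57 and rho = 0.42 over 16 pools (adjusted permutation p = 0.0352 and 0.116), 0.61 within AZN and 0.66 within ABH. The difference between the type IV pairs was not tested.

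For the type I chains Col1a1 and Col1a2, r was 0.89 and rho 0.71 (adjusted permutation p = 7.33e-05 and 0.00931), with 0.90 within AZN and 0.85 within ABH. Without the 2 farthest pools r was 0.71. For Col8a1 and Col8a2 r was 0.63 and rho 0.65 (adjusted permutation p = 0.0204 and 0.0233), with 0.61 within AZN and 0.76 within ABH, and 0.46 without the 2 farthest pools. For Col5a1 and Col5a2 r was 0.45 and rho 0.43 (adjusted permutation p = 0.0923 and 0.116). Col2a1 and Col11a2, which meet in cartilage fibrils, had r = 0.65 and rho = 0.48 (adjusted permutation p = 0.0136 and 0.0898). That relation rested on few pools, since r was 0.92 within AZN and 0.01 within ABH, where rho was -0.43, and fell to 0.25 without the 2 farthest pools. For Col2a1 and Col9a1 r was 0.55 and rho 0.47 (adjusted permutation p = 0.0352 and 0.0898), and 0.43 without the 2 farthest pools. The type IX chains had lower correlations, with r = 0.37 for Col9a1 and Col9a2 and r = 0.46 for Col9a1 and Col9a3 (adjusted permutation p = 0.163 and 0.0891, and rho 0.38 and 0.51 with 0.15 and 0.0883).

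**Figure D4:**
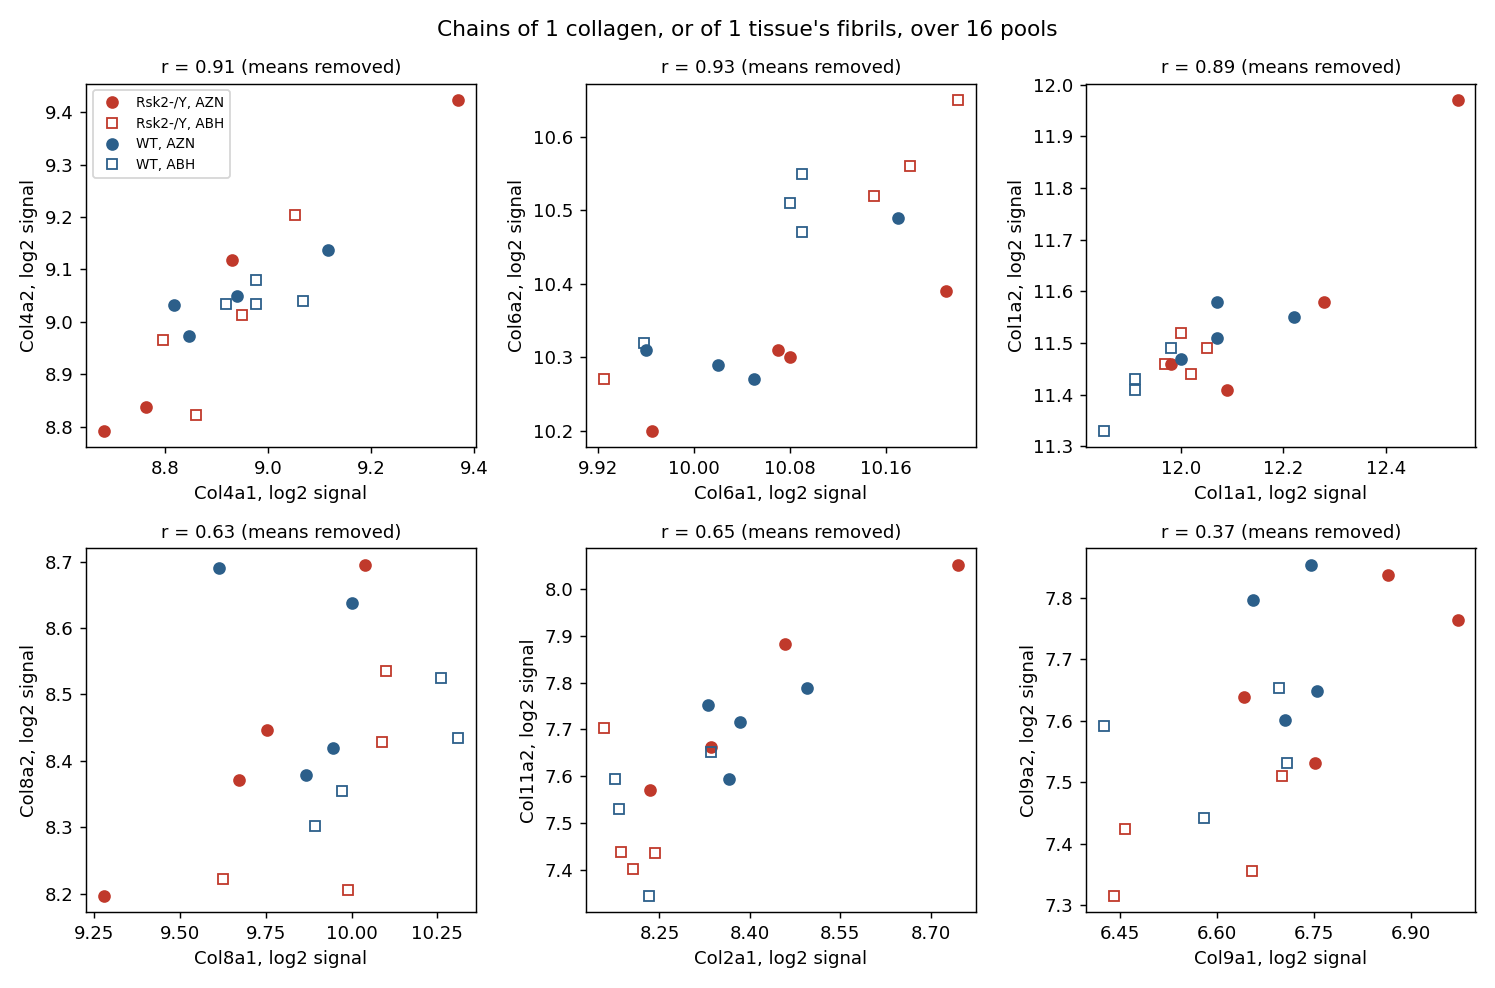
Log2 signals of paired collagen chains in 16 pools (Rsk2-/Y red, WT blue; AZN filled circles, ABH open squares), with r after removal of the mean of each genotype in each series. Col4a1 with Col4a2 (r = 0.91) and Col6a1 with Col6a2 (r = 0.93) lie close to a line, and Col9a1 with Col9a2 (r = 0.37) do not.

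Genes that make, cut, cross-link or bind collagen were read from the same fits. None was called between genotypes. Of 11 genes for propeptide cleavage and cross-linking, 9 were above 0 in Rsk2-/Y with a median of 0.12, and of 16 basement membrane partners 12 were below 0 with a median of -0.02, against 40.7% of all probe sets above 0 and a median of -0.01. The partners thus lay close to the median of all probe sets. Between the series, the counts of these lists stand against 5.95% of all probe sets called higher and 10.6% called lower, and 53.5% above 0. Among 20 chaperones and modifying enzymes, 1 was called higher and 2 lower in AZN. The prolyl 3-hydroxylase gene P3h2 was at 9.32 to 9.84 in AZN pools and at 10.47 to 10.73 in ABH pools, lower by 1.01 ± 0.07 log2 units (SE, adjusted p = 1.29e-07, limma). P4ha3, a prolyl 4-hydroxylase gene, was at 10.32 to 10.96 in AZN pools and at 11.25 to 11.71 in ABH pools, lower by 0.95 ± 0.09 (SE, adjusted p = 1.8e-06, limma). Neither pair of ranges overlapped, which was also so for 8.95% of all probe sets between the series. Creb3l1, a transcription factor of the secretory pathway, was higher by 0.33.

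Of the 11 cleavage and cross-linking genes, the procollagen proteinase enhancer gene Pcolce2 and the propeptidase gene Adamts3 were higher in AZN by 0.51 and 0.39, and the propeptidase genes Adamts14 and Tll1 were lower by 0.34 and 0.27. Of 9 receptors, the collagen-binding integrin genes Itga1, Itga2 and Itga11 were lower by 0.36, 0.39 and 0.32, and the inhibitory receptor gene Lair1 was higher by 0.27. Of 11 fibril partners, Bgn, a small proteoglycan, was lower by 0.27 (12.29 to 12.57 in AZN pools and 12.58 to 12.80 in ABH pools). Of 16 basement membrane partners, 14 were below 0 in AZN with a median of -0.20, and 4 were called lower, the linker gene Nid1 by 0.52 and the laminin chain genes Lama1, Lama2 and Lamb3 by 0.28, 0.31 and 0.32. The type IV chains of the basement membrane were not among the collagens called. Of 7 regulators, Klf4 and Sp7 were called higher by 0.44 and 0.30, and Sox9 was the 1 called lower.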

How the data were processed

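RNA of 16 pools was measured on Affymetrix mouse gene arrays, and the genotype given for each sample in its labels set its group. The deposited values are log2 signals per probe set, made by the authors using RMA in Affymetrix Expression Console (version 1.3.1.187), which corrects background, equalises arrays and summarises probes. Nothing was normalized further. Precision is limited by the number of arrays. No 2 samples held identical values. The labels do not say whether pools came from separate litters, so p-values measure the spread between these pools.

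Of 35556 probe sets, 21789 carry 1 symbol, 1621 several and 12146 none. The 18834 with 1 symbol and a signal above 5 in at least 1 sample were tested two-sided in R 4.3.3 by the lmFit and eBayes functions of limma 3.58.1, with p-values adjusted by Benjamini and Hochberg. The study's thresholds were kept, a false discovery rate below 0.1 with more than 1.2-fold. Fits were genotype alone, series with genotype, and their interaction. limma and the permutation code were tested on simulated data. Exact permutation used 12870 arrangements of 8 against 8, or the 4900 that keep the series, whose smallest p are 0.0001554 and 0.0004082. Correlations over 16 pools used 100000 resamples. Those within a series used the signals without removal of any mean. Python 3.11.15, NumPy 2.4.6 and SciPy 1.17.1 were used. Named genes are the members called in any fit, the 3 of each class with the largest genotype difference, members of the chain pairs, and up to 4 called genes of each pathway list; Col3a1, Col7a1, Col15a1, Col16a1, Col19a1, Col20a1, Col23a1 and Col4a4 were named after their values were seen. Members, classes, marker and pathway lists were chosen with earlier results of these data known, and the relations with marker lists after the data had been seen. The files name no genome build; sequences are RefSeq's, of GRCm38.p6. Protein sequences were not used here.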

Additional observations from a re-analysis of the deposited data

Results flagged for a closer look

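Of 80 groups of 8 pools (the named collagens and the class means, in each genotype), 5 had 1 pool far from the rest by Dixon's test, and chance alone flags about 1 group in 20. In Rsk2-/Y, AZN_MolairesMutant3 stood at 11.97 for Col1a2, against 11.58 for the next pool, and at 9.37 for the mean of the fibrillar collagens, against 9.17. AZN_MolairesMutant4 was the lowest Rsk2-/Y pool for the mean of the beaded filament collagens, at 8.56 with the next at 8.71. In WT, ABH_13A stood at 10.11 for Col14a1, with the next pool at 9.29, and ABH_25A at 6.78 for Col4a6, with the next at 6.55.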

How the results depend on the processing

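No collagen was called between genotypes or by the interaction under any alternative run. Between the series 1 collagen was called higher (Col22a1) and 1 lower (Col12a1). The counts were 11 higher and 5 lower with no minimum fold, 0 higher and 2 lower with array weights, 2 lower with median centring, 0 higher without ABH_14A and AZN_MolairesMutant3, 2 higher and 2 lower without the unnumbered AZN pools, and 2 higher and 3 lower with Rsk2-/Y pools alone, where Col22a1 was not called. With WT pools alone 0 were higher and the 1 lower was Col11a1, not Col12a1. The last 4 settings fit fewer pools, and the cause of the other changes was not tested. When any 1 pool was left out, 0 to 3 were higher and 1 to 2 lower. Over these 16 fits Col12a1 was called in 16, Col22a1 in 14 (not without AZN_MolairesMutant3 or ABH_26A), Col24a1 in 7, Col8a1 in 7, Col11a2 in 2 and Col11a1 in 1 (without AZN_MolairesMutant3), the last 4 genes having differences close to 1.2-fold. No called collagen turned its sign. Testing probe sets with several symbols as well, an alternative chosen after seeing the data, changed no call of a collagen. Replicate numbers are shared by 2 pairs of AZN pools only, whose deviations correlated at -0.03 and -0.00, while those of the unnumbered AZN pools, AZN_MolairesMutant and AZN_MolairesWT, correlated at 0.68. With the numbers as a replicate block 0 collagens were called between genotypes (smallest adjusted p = 0.343, Col11a1, limma). Signals not far above the minimum of 5 limit what can be read from Col10a1, Col19a1 and Col28a1. Col4a3, Col4a4, Col4a6, Col6a4, Col6a5 and Col9a1 also had mean signals below 6.74, the lowest array median.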
